A study of Mus musculus with 90 samples.

Results

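Glucose and fructose enter liver metabolism through a short chain of regulated steps, and 7 genes of that chain were followed here in every liver RNA library of the series: Slc2a2, Gckr, Pfkfb1, Pfkfb3, Pfkl, Pklr and Khk. They were chosen by symbol. Each symbol was read from the RefSeq transcript with the highest mean RPKM (reads per kilobase of transcript, scaled to the mapped reads of the library) over all libraries, and all 7 were found among 24312 symbols. The positions of peaks bound by the glucocorticoid receptor (GR) and by Forkhead box O1 (FOXO1), and of DNase hypersensitive sites (DHSs), were then read around each gene.

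Slc2a2 encodes GLUT2, the transporter that carries glucose across the hepatocyte membrane, and Gckr encodes the glucokinase regulatory protein, which holds glucokinase in the nucleus until glucose or fructose 1-phosphate rises. Pfkfb1 and Pfkfb3 encode bifunctional enzymes that make and break fructose 2,6-bisphosphate, the allosteric activator of phosphofructokinase, whose liver subunit is encoded by Pfkl. Pklr encodes the pyruvate kinase of liver and red cells, which closes glycolysis, and Khk encodes ketohexokinase, which phosphorylates fructose. GR is activated by glucocorticoids before the meal, FOXO1 is inactivated by insulin after it, and insulin reaches the cell interior through the receptor substrates IRS1 and IRS2.

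Livers came from mice on night-restricted feeding (NRF), in which food was present in the dark phase only. Zeitgeber time (ZT) counts hours from lights on, and food was given at ZT12. The series holds 90 samples, of which 54 are RNA libraries in 16 groups from 5 experiments. In the first, total RNA depleted of ribosomal RNA was sequenced from wild type C57BL/6 mice at ZT10, at ZT14 without food (ZT14-unfed) and at ZT14 after food (ZT14-fed), with 2 libraries per group. All the others used poly(A) RNA and were taken at ZT14. Wild type C57BL/6 mice were injected 30 minutes before ZT12 with vehicle, with the GR agonist dexamethasone (dex) at 1 mg/kg, with the insulin receptor antagonist S961 at 44 nM per mouse as the labels give it (44 nmol/kg in the methods), or with both. All 4 treatments were followed by a meal and vehicle also by no meal, with 4 libraries in each of the 5 groups. Mice homozygous for floxed Nr3c1, the GR gene, received AAV-GFP or AAV-CRE driven by the hepatocyte promoter Tbg 2 weeks (12 days in the methods) before NRF and were left unfed, and the AAV-CRE mice are called L-GRKO (4 libraries per group). Mice homozygous for floxed Irs1 and Irs2 without or with Alb-Cre, a recombinase driven by the albumin promoter, the latter called L-IRSdKO, all received dex at 1 mg/kg and all were fed (4 libraries per group). Wild type C57BL/6 mice kept on chow (lean) or a high-fat diet (diet-induced obese, DIO) for 10 weeks and then on NRF for 4 days were left unfed or fed (3 libraries per group). In the methods, the mice of the first experiment, the injected mice and the Irs mice were 10 weeks old at NRF, the floxed Nr3c1 mice were adult, and the high-fat diet began at 5 weeks of age. The labels give every strain or background as C57BL/6. The methods name C57BL/6N for the first experiment, the injected mice and the floxed Nr3c1 mice, and C57BL/6J for the Irs mice. Some labels of S961 libraries carry the code number counted upwards, and all were read as S961. Each RNA library came from 1 mouse. In whole liver, fewer cells of a type and less RNA per cell cannot be told apart.

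The depth implied by the step between low RPKM values was 26000000 to 38000000 reads in the first experiment, 6460000 to 13400000 in injected mice, 15200000 to 27300000 in the GR experiment, 3640000 to 4480000 in the IRS experiment and 16800000 to 61800000 in lean and DIO mice. Of 6 hepatocyte markers listed, 5 were found, and they summed to 27667 RPKM or more in every library outside the IRS experiment, while 4 adipocyte markers summed to less than 1 RPKM in every library. The 8 libraries of the IRS experiment stood apart from the other 46. Alb, the hepatocyte's most abundant secreted product, lay between 650 and 914 RPKM there and between 18850 and 60600 RPKM elsewhere. Against dex-injected, fed wild type mice, the floxed controls had a median ratio of 2.19 for genes between 1 and 10 RPKM and 0.186 for genes at or above 1000 RPKM. For the 8 IRS libraries the study's sequencing summary lists far more reads than the implied depth. In lean and DIO mice the listed and implied numbers were close. The causes were not tested, and all differences below were therefore taken within 1 experiment.

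The targeted genes followed the labels in part. Nr3c1 RPKM was 12.8, 14.5, 13.2 and 16.2 in the AAV-GFP libraries and 3.93, 4.23, 4.14 and 5.35 in L-GRKO (log2 difference -1.58, limma adjusted p = 6.83e-05). Irs1 was between 2.21 and 4.73 RPKM in the floxed controls and between 0.149 and 0.321 RPKM in L-IRSdKO (log2 difference -2.66, adjusted p = 0.000916). Irs2 overlapped between these groups, at 0.614 to 5.61 RPKM in the controls and 0.272 to 1.00 RPKM in L-IRSdKO (log2 difference -0.79, adjusted p = 0.308).

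Of the 7 genes, Slc2a2 and Khk had the highest RPKM, which is a level per transcript length, and Pfkl and Pfkfb3 the lowest in most groups. Over all 54 libraries the median was 150 RPKM for Khk, 110 for Slc2a2, 86.1 for Pklr, 51.4 for Gckr, 26.5 for Pfkfb1, 9.56 for Pfkfb3 and 8.80 for Pfkl. Their steadiness within an experiment differed. Pfkl varied between 1.13 and 1.61 times from its lowest to its highest library of an experiment, and Gckr between 1.24 and 1.5 times. Pfkfb3 varied between 1.62 and 11.7 times and Pfkfb1 between 1.42 and 5.4 times.

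All 7 genes were tested in each of 16 comparisons with limma, fitted to log2(RPKM + 0.5) over all genes of an experiment with a mean of at least 0.5 RPKM. The Benjamini-Hochberg adjusted p had to be under 0.01 in the first experiment and in lean and DIO mice, and under 0.05 in the others. Of these 112 differences, 4 passed, and all 4 were decreases. Pfkfb3 and Pfkfb1 fell in L-GRKO, where 6.68% of all genes tested passed and 2.22% passed as lower. Pklr fell in L-IRSdKO, where 17.4% of all genes tested passed and 8.31% passed as lower. Slc2a2 fell between ZT10 and ZT14-unfed, where 1.16% of all genes tested passed and 0.788% passed as lower.

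In the remaining 13 comparisons limma called 0 of the 7. The share of all genes tested that passed was 0.99% for ZT14-fed against ZT14-unfed and 1.71% for ZT14-fed against ZT10. In injected mice it was 3.13% for fed against unfed vehicle, 3.19% for dex, 1.9% for S961 and 10.6% for dex + S961, each against vehicle in fed mice, and 2.32% for fed dex + S961 against unfed vehicle. The dex by S961 interaction called 0 genes, with 513 at an unadjusted p under 0.05. In lean mice the meal called 10.2% of all genes tested and in DIO mice 1.22%. DIO against lean called 0.77% in unfed mice and 0 genes in fed mice, with 2284 at an unadjusted p under 0.05, and the diet by meal interaction called 0.131%. At an unadjusted p under 0.05, 3 of the 7 stood in the comparison of ZT14-fed with ZT10, beside 28.3% of all genes tested, and 3 in the fed against unfed vehicle comparison, beside 19.3%. In 4 comparisons 1 of the 7 stood there, namely under dex (beside 18.5% of all genes), for the meal in lean mice (36.3%) and for DIO against lean in unfed (22.9%) and in fed mice (20%). In each of the other 7 of these 13 comparisons, 0 of the 7 stood there, beside 4.56% to 27.7% of all genes.

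The median log2 difference over all genes tested was -0.10 for ZT14-unfed against ZT10, 0.12 for ZT14-fed against ZT14-unfed, 0.10 for fed against unfed vehicle and -0.14 for dex + S961 against vehicle, and near 0 after median-ratio scaling, so that differences of this size follow the scaling. The medians of the 7 in the same comparisons, with RPKM as deposited, were -0.17, 0.12, -0.23 and 0.14.

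The libraries of a pair of groups did not overlap for some of the 7 in 10 comparisons. With only 2 libraries per group, this held for 6 of the 7 at ZT14-unfed against ZT10, for 3 at ZT14-fed against ZT14-unfed and for 6 at ZT14-fed against ZT10, beside 56.2%, 59.7% and 58.4% of all genes tested. It held for 1 in fed against unfed vehicle (13.5% of all genes tested), for 2 in fed dex + S961 against unfed vehicle (10.6%), for 2 in L-GRKO (12.8%) and for 2 in L-IRSdKO (21.7%). It held for 1 with the meal in lean mice (43.3%), for 1 with the meal in DIO mice (27.8%) and for 4 in fed DIO against fed lean mice (32.6%).

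**Figure D1:**
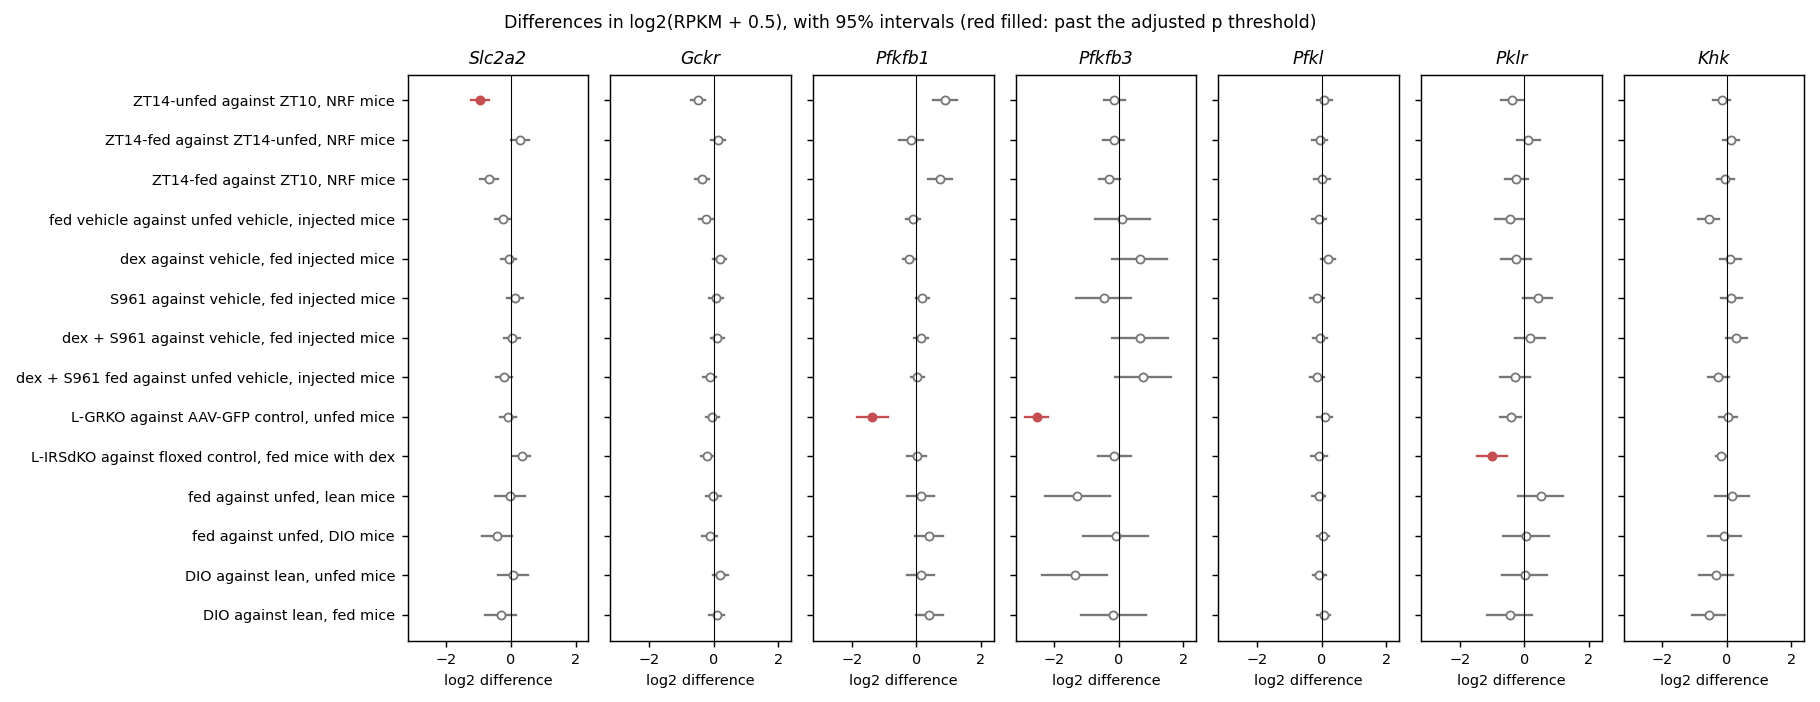
Difference in log2(RPKM + 0.5) for each gene (columns) in 14 comparisons between groups (rows), with 95% intervals from limma; red filled points passed the adjusted p threshold and open points did not. The 4 filled points are Slc2a2 at ZT14-unfed against ZT10, Pfkfb1 and Pfkfb3 in L-GRKO, and Pklr in L-IRSdKO, and all Pfkl points lie near 0.

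Slc2a2, the entry step, was lower at ZT14-unfed than at ZT10. These groups differ in clock time, in lighting and in hours without food, which cannot be told apart here. Slc2a2 RPKM was 147 and 140 at ZT10, 83.1 and 66.0 at ZT14-unfed, and 89.7 and 90.3 at ZT14-fed. All 4 livers at ZT14 lay below both livers at ZT10. At ZT14-unfed its level was 0.518 times that at ZT10, a log2 difference of -0.95 with a 95% interval from -1.23 to -0.67 and an adjusted p of 0.00839. With 2 libraries per group this call was kept in 6 of 15 alternatives. Those kept include the looser threshold of 0.05 and a refit on second RefSeq IDs, neither of which could lose it. The log2 difference was -0.83 after median-ratio scaling (adjusted p = 0.0151) and -0.78 without ZT14-unfed replicate 2 (adjusted p = 0.0181). Without ZT10 replicate 1 the adjusted p was 0.0505, and without ZT10 replicate 2 it was 0.0441. ZT14-fed stood 0.67 below ZT10 on the log2 scale (adjusted p = 0.0198, not past 0.01). The meal itself gave a log2 difference of 0.28 (95% interval from just under 0 to 0.56, adjusted p = 0.181).

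Slc2a2 did not pass in the other experiments. Its RPKM was 137, 118, 129 and 111 in unfed vehicle livers and 103, 106, 116 and 89.6 in fed vehicle livers, and the groups overlapped (log2 difference -0.26, adjusted p = 0.226). Fed dex gave 92.1, 90.9, 94.9 and 118, fed S961 gave 111, 111, 107 and 122, and both together gave 114, 107, 120 and 86.3, so that all 4 fed groups overlapped. In L-IRSdKO it was 80.8, 114, 99.0 and 93.9 RPKM against 68.8, 89.1, 72.9 and 76.2 in the floxed controls, a log2 difference of 0.33 that did not pass (adjusted p = 0.0815). Without L-IRSdKO replicate 1, the lowest of its group, it was 0.41 (adjusted p = 0.0214). With each library left out in turn, adjusted p ran from 0.0214 to 0.194, and 2 of 18 alternatives passed. AAV-GFP livers lay between 100.2 and 118 RPKM and L-GRKO livers between 81.6 and 114 RPKM, with overlap.

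In lean mice, Slc2a2 was 165, 118 and 145 RPKM unfed and 143, 139 and 133 RPKM fed. In DIO mice it was 220, 138 and 107 RPKM unfed and 118, 99.4 and 115 RPKM fed, and the unfed DIO libraries spread most widely of the 4 groups, from 107 to 220 RPKM. Fed DIO livers lay below all 3 fed lean livers, with a log2 difference of -0.32 (95% interval -0.79 to 0.15, adjusted p = 0.425).

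Slc2a2 had more GR and FOXO1 peaks within 50 kb of its start than any of the other 6 genes: 4 of each, with 3 overlapping pairs. One pair lay 15.8 kb upstream, between genes, and the others lay in its introns, 24.0 kb and 24.9 kb downstream of the start. The upstream pair is printed because it holds a match to the GR element searched, ACANNNTGT on either strand. Capitals mark the match, which lies in the FOXO1 peak just outside the GR peak (mm9, chr3:28580915-28581148, plus strand, as the gene reads).

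Slc2a2 upstream GR and FOXO1 peaks: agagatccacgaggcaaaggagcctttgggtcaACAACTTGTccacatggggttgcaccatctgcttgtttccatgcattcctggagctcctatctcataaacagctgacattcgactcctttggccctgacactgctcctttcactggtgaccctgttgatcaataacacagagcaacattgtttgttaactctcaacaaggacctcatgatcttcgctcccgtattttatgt

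Gckr, the regulator of glucokinase, was among the steadiest of the 7. At ZT10 it was 41.5 and 38.1 RPKM, at ZT14-unfed 28.6 and 27.8 RPKM, and at ZT14-fed 30.1 and 31.5 RPKM. The ZT10 livers were the highest here, as for Slc2a2. The log2 difference of ZT14-unfed from ZT10 was -0.49 (95% interval -0.70 to -0.28, adjusted p = 0.0228), and that of ZT14-fed from ZT10 was -0.36 (adjusted p = 0.0506), so neither passed 0.01. In injected mice it lay between 41.9 and 45.5 RPKM in unfed vehicle livers and between 32.2 and 43.2 RPKM in fed vehicle livers (log2 difference -0.23, adjusted p = 0.194). Fed dex livers, at 36.3, 44.1, 42.6 and 45.6 RPKM, overlapped fed vehicle livers (log2 difference 0.18, 95% interval -0.02 to 0.39, adjusted p = 0.324).

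Across the knockouts Gckr did not pass. It ran from 54.1 to 60.8 RPKM in AAV-GFP and from 48.8 to 60.5 RPKM in L-GRKO livers. In the floxed controls it was 80.6, 86.6, 74.4 and 69.6 RPKM and in L-IRSdKO 71.1, 74.3, 66.2 and 60.4 RPKM (log2 difference -0.19, 95% interval -0.40 to 0.01, adjusted p = 0.177). Unfed DIO livers had 72.2, 71.4 and 65.9 RPKM and unfed lean livers 70.8, 54 and 57.0 RPKM (log2 difference 0.21, adjusted p = 0.254). Lean fed livers had 63.4, 53.9 and 63.1 RPKM and DIO fed livers 64.8, 65.3 and 61.6 RPKM, again overlapping.

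Gckr was the only one of the 7 genes with a GR peak at its start: the peak centre lay 0.19 kb upstream and within a DHS, and no FOXO1 peak lay within 50 kb. The peak is shown because it lies in the promoter of a gene whose RPKM overlapped between L-GRKO and AAV-GFP livers. Neither the GR element nor the FOXO element TGTTTAC was found in it on either strand, so it has no capitals (mm9, chr5:31599676-31599855, plus strand).

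Gckr promoter GR peak: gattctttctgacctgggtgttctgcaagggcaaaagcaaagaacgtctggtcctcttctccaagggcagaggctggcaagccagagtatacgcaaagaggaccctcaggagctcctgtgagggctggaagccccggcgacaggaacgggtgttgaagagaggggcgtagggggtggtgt

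Pfkfb1, the main bifunctional enzyme of liver, fell in L-GRKO. Its RPKM was 28, 16.6, 19.2 and 22.4 in AAV-GFP livers and 7.89, 10.9, 5.17 and 8.84 in L-GRKO livers. Every L-GRKO liver lay below every AAV-GFP liver. The mean fell from 21.5 ± 4.89 to 8.21 ± 2.39 RPKM (SD, n = 4 each), a fold of 0.39 and a log2 difference of -1.36 with a 95% interval from -1.83 to -0.89 (adjusted p = 0.0045). The call was kept in all 18 alternatives run for it. They include a refit on second RefSeq IDs, which leaves Pfkfb1 unchanged because it has 1 ID. The red cell markers Hba-a1, Hba-a2, Hbb-b1, Hbb-b2 and Alas2 summed to 482 to 983 RPKM in L-GRKO and to 334 to 439 RPKM in AAV-GFP, and their part in the result was not tested.

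Pfkfb1 was lowest at ZT10. It was 4.47 and 5.67 RPKM there, 8.69 and 11 RPKM at ZT14-unfed and 8.01 and 9.43 RPKM at ZT14-fed. The direction was opposite to that of Slc2a2 and Gckr, with a log2 difference of 0.89 at ZT14-unfed (95% interval 0.52 to 1.26, adjusted p = 0.0213) and of 0.73 at ZT14-fed (adjusted p = 0.0344), neither past 0.01.

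No injection changed Pfkfb1 by a difference that passed. It was 33.8, 28.3, 33.2 and 28.3 RPKM in unfed vehicle livers, 26.7, 30.6, 31.3 and 25.9 RPKM in fed vehicle livers and 26.4, 24.5, 25.4 and 21.9 RPKM in fed dex livers. Dex against vehicle gave a log2 difference of -0.22 (95% interval -0.43 to -0.01, adjusted p = 0.244). The S961 livers had 36.7, 32.1, 33.0 and 28.8 RPKM and the dex + S961 livers 34.5, 30.2, 32.1 and 29.7 RPKM. Against fed vehicle the log2 difference was 0.19 for S961 (adjusted p = 0.416) and 0.14 for both agents (adjusted p = 0.394).

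In the IRS experiment Pfkfb1 was 47.3, 52.3, 67.1 and 63.2 RPKM in the controls and 50.1, 56.9, 57.0 and 66.5 RPKM in L-IRSdKO, and the groups overlapped throughout. In lean mice it was 19.7, 16.4 and 20.8 RPKM unfed and 23.6, 21.0 and 18 RPKM fed. DIO livers had 14.5, 26.7 and 23.4 RPKM unfed and 29.5, 28.4 and 25.1 RPKM fed. All 3 fed DIO livers lay above all 3 fed lean livers, with a log2 difference of 0.40 (95% interval -0.02 to 0.83, adjusted p = 0.272). The meal in DIO mice gave 0.40 as well (adjusted p = 0.228).

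Both GR peaks of Pfkfb1 lay in its introns, 10.1 kb and 10.8 kb downstream of the start, each within a DHS, and the nearer one overlapped a FOXO1 peak. These distances are from the first of 3 annotated Pfkfb1 starts, and the last of them lay 3.85 kb and 4.54 kb from the peaks. The GR element searched was found once in the 250 bases before that last start, as in 5.84% of all RefSeq promoters of that length. Apex2, a DNA repair gene, shares 123 of the 4017 exon bases of Pfkfb1 on the opposite strand, and its start lay 8.46 kb and 9.15 kb from the peaks. They are shown because the gene fell in L-GRKO. Neither the GR element nor the FOXO element was found in either of them, so no letters are in capitals (mm9, chrX:147032733-147032958 and chrX:147033475-147033654, plus strand).

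Pfkfb1 intron GR and FOXO1 peaks: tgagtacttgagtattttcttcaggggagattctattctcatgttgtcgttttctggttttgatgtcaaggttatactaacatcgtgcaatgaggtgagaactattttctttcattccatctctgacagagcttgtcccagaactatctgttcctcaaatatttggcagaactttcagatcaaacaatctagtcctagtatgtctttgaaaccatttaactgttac

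Pfkfb1 intron GR peak: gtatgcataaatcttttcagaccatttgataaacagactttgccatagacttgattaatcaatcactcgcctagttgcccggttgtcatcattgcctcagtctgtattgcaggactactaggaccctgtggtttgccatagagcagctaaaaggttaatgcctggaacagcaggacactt

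Pfkfb3, the inducible bifunctional enzyme with high kinase activity, showed the largest difference of the 7 genes. Its RPKM was 14, 14.2, 12.2 and 17.3 in AAV-GFP livers and 2.78, 1.73, 1.48 and 2.30 in L-GRKO livers. The highest L-GRKO liver stood far below the lowest AAV-GFP liver. The mean fell from 14.4 ± 2.12 to 2.07 ± 0.583 RPKM (SD, n = 4 each). On the log2(RPKM + 0.5) scale the difference was -2.55 (SE 0.17, 95% interval -2.92 to -2.19, adjusted p = 2.34e-05), a fold of 0.17. The call was kept in all 18 alternatives, with log2 differences from -2.68 to -2.44 when 1 library was left out.

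In Pfkfb3, the group of each agent overlapped the widely spread fed vehicle group. Unfed vehicle livers had 10.3, 10.6, 8.72 and 8.01 RPKM and fed vehicle livers 9.25, 17.1, 15.2 and 4.12 RPKM, the latter spanning the former (log2 difference 0.10, 95% interval -0.76 to 0.96, adjusted p = 0.924). That sign turned after median-ratio scaling. Fed dex livers had 13.2, 9.47, 21.6 and 23.9 RPKM, fed S961 livers 14.6, 9.66, 4.95 and 3.51 RPKM, and livers with both agents 21.4, 16.1, 17.0 and 11.3 RPKM.

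Dex had the highest group mean, at 17.1 ± 6.86 RPKM, and S961 the lowest of the injected groups, at 8.17 ± 5.01 RPKM (SD, n = 4 each), and both overlapped fed vehicle. Against fed vehicle the log2 difference was 0.64 for dex (95% interval -0.22 to 1.5, adjusted p = 0.433), -0.47 for S961 (95% interval -1.33 to 0.38, adjusted p = 0.677) and 0.65 for both agents (95% interval -0.21 to 1.51, adjusted p = 0.347). Livers with both agents lay above all 4 unfed vehicle livers, with a log2 difference of 0.75 (95% interval -0.11 to 1.61, adjusted p = 0.525). The interaction of dex and S961 was 0.48 (95% interval -0.73 to 1.70, adjusted p = 1.00).

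**Figure D2:**
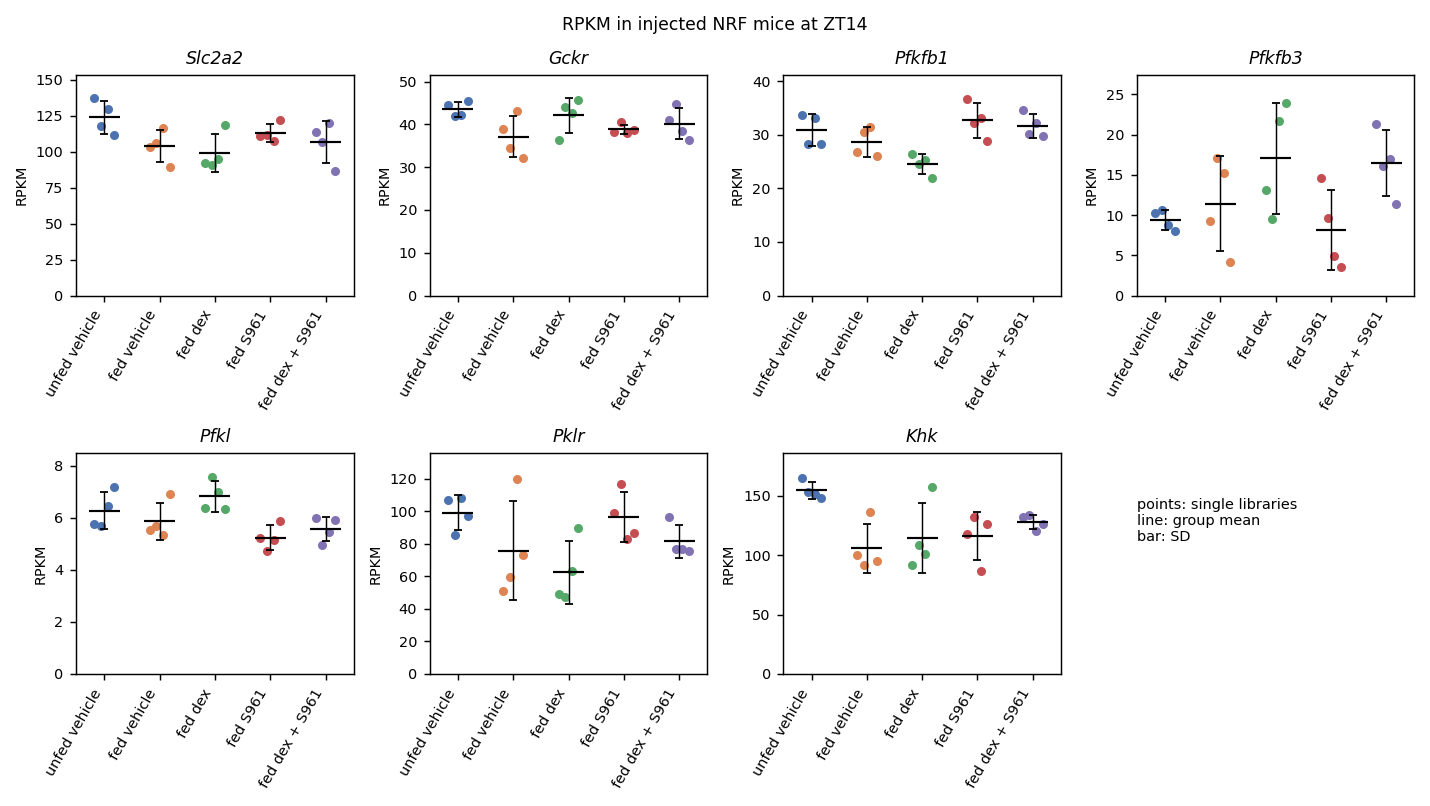
RPKM of the 7 genes in each of 4 libraries (points) of the 5 groups of injected mice, with the group mean (line) and SD (bar), on axes that start at 0. Pfkfb3 and Pklr spread widely within the fed groups, and unfed vehicle Khk lies above fed vehicle Khk in all 4 libraries.

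Pfkfb3 in the IRS experiment was 56.7, 42.2, 37.1 and 38.7 RPKM in the controls and 62.2, 37.0, 32.0 and 31.1 RPKM in L-IRSdKO, overlapping (log2 difference -0.14, 95% interval -0.65 to 0.36, adjusted p = 0.692). All these mice had received dex, and their libraries are the ones that stood apart, so the level was not compared with that of other experiments. In NRF mice it was near 2 RPKM in every library, with 1.94 and 2.33 RPKM at ZT10, 1.87 and 1.88 RPKM at ZT14-unfed and 1.43 and 1.85 RPKM at ZT14-fed. The meal gave a log2 difference of -0.16 (adjusted p = 0.512), and ZT14-fed against ZT10 gave -0.30 (adjusted p = 0.205).

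In lean mice Pfkfb3 was 5.08, 12.2 and 9.88 RPKM unfed and 3.55, 3.79 and 2.36 RPKM fed. Every fed liver lay below every unfed one. The log2 difference was -1.30 (95% interval -2.30 to -0.29, adjusted p = 0.0624), which did not pass. In DIO mice it was 7.43, 2.06 and 1.59 RPKM unfed and 1.85, 3.18 and 3.45 RPKM fed, with unfed replicate 1 far above the other unfed livers. The meal then gave a log2 difference of -0.11 (adjusted p = 0.914).

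Unfed DIO against unfed lean livers overlapped through that 1 library, with a log2 difference of -1.37 (95% interval -2.38 to -0.36, adjusted p = 0.109). Without DIO unfed replicate 1 the difference was -1.96 (adjusted p = 0.00712, past 0.01). With each library left out in turn, adjusted p ran from 0.00712 to 0.271, and 1 of 17 alternatives passed. Fed DIO against fed lean gave -0.18 (adjusted p = 0.864). The difference of the meal responses between diets was 1.19 (95% interval -0.23 to 2.62, adjusted p = 0.417).

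Pfkfb3 had 2 GR peaks within 50 kb, 33.1 kb and 40.7 kb upstream of its start, each within a DHS and with no other protein-coding start nearer. A FOXO1 peak overlapped the nearer one. They are shown because each held 1 match to the GR element ACANNNTGT, in capitals (mm9, minus strand, as the gene reads, chr2:11456621-11456869 and chr2:11464299-11464478).

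Pfkfb3 upstream GR and FOXO1 peaks: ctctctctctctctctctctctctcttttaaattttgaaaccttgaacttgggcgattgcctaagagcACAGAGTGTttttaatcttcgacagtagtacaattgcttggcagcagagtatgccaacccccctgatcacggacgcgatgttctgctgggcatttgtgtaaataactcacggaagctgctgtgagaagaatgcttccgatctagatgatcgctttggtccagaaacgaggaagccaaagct

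Pfkfb3 distal GR peak: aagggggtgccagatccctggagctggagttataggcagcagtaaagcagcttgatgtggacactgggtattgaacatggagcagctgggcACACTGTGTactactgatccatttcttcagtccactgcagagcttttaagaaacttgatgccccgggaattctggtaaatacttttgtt

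Pfkl, the liver subunit of phosphofructokinase, did not pass in any of the 16 comparisons and had no unadjusted p under 0.05. It lay between 5.72 and 6.44 RPKM in NRF mice, between 4.72 and 7.58 RPKM in injected mice, between 9.53 and 11.6 RPKM in the GR experiment, between 10.8 and 15.2 RPKM in the IRS experiment and between 8.67 and 10.6 RPKM in lean and DIO mice. Its log2 differences ran from -0.16 to 0.21 over all comparisons between groups. The largest was dex against vehicle, at 0.21 (95% interval -0.01 to 0.42, adjusted p = 0.297), and S961 against vehicle gave -0.15 (95% interval -0.36 to 0.07, adjusted p = 0.597). Pfkl was also the only one of the 7 genes with neither a GR nor a FOXO1 peak within 50 kb, although 10 DHSs lay there. Its nearest GR peak was 284 kb upstream and its nearest FOXO1 peak 110 kb downstream.

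Pklr, pyruvate kinase, fell in L-IRSdKO. Its RPKM was 73.8, 59.1, 53.1 and 59.0 in the floxed controls and 39.5, 39.5, 23.4 and 22.6 in L-IRSdKO. Every L-IRSdKO liver lay below every control liver. The mean fell from 61.2 ± 8.83 to 31.3 ± 9.53 RPKM (SD, n = 4 each), a fold of 0.5 and a log2 difference of -1.0 with a 95% interval from -1.46 to -0.54 (adjusted p = 0.0136). The call was kept in 17 of 18 alternatives and lost at a threshold of 0.01.

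Markers of other cells moved with that comparison. Summed over 6 Kupffer cell genes the range was 235 to 302 RPKM in L-IRSdKO and 139 to 250 RPKM in controls, and over 6 endothelial genes 132 to 165 against 104 to 133 RPKM. Over 6 stellate cell genes it was 135 to 158 against 109 to 128 RPKM, and over 6 cholangiocyte genes 8.0 to 14 against 19.9 to 46.3 RPKM. Over 6 lymphocyte genes it was 6.56 to 7.88 against 2.83 to 6.68 RPKM. Over the 5 red cell genes it was 83.2 to 104 against 99.8 to 187 RPKM, lower in L-IRSdKO as was Pklr. Their part in the fall of Pklr was not tested. Pklr shares 711 of its 3236 exon bases with Hcn3, a channel gene on the opposite strand, and whether reads were counted by strand is not given in the sources used here.

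In L-GRKO Pklr was 132, 103, 87.3 and 104 RPKM against 178, 140, 117 and 140 RPKM in AAV-GFP livers, overlapping (log2 difference -0.43, 95% interval -0.75 to -0.10, adjusted p = 0.126). Of 18 alternatives, 1 called Pklr there, a limma fit with a term for the replicate number (adjusted p = 0.0306). In NRF mice it was 21.1 and 22.9 RPKM at ZT10, 19.5 and 14.7 RPKM at ZT14-unfed and 16.9 and 20.1 RPKM at ZT14-fed (ZT14-unfed against ZT10 -0.37 on the log2 scale, adjusted p = 0.176). Unfed vehicle livers had 107, 85.3, 108 and 97.0 RPKM and fed vehicle livers 51.2, 59.6, 120 and 73.0 RPKM, where 3 fed livers lay below all unfed livers and 1 above them all (log2 difference -0.46, adjusted p = 0.263).

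Among fed injected mice, dex livers had 49.2, 47.5, 63.5 and 89.5 RPKM of Pklr, S961 livers 99.1, 117, 83.1 and 86.9 RPKM, and livers with both 96.8, 76.6, 77.1 and 75.4 RPKM. The single fed vehicle liver at 120 RPKM lay above all of them. Dex against vehicle gave a log2 difference of -0.25 (adjusted p = 0.594) and S961 against vehicle 0.41 (95% interval -0.05 to 0.87, adjusted p = 0.427). S961 was given alone and with dex, while all mice of the IRS experiment received dex. Mean Pklr was 81.5 RPKM in fed dex + S961 livers and 62.4 RPKM in fed dex livers, a pair that was not tested.

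In lean mice Pklr was 161, 65.9 and 127 RPKM unfed and 161, 164 and 149 RPKM fed (log2 difference 0.51, 95% interval -0.19 to 1.21, adjusted p = 0.277). DIO livers had 178, 97.4 and 80.0 RPKM unfed and 107, 128 and 113 RPKM fed. All 3 fed DIO livers lay below all 3 fed lean livers (log2 difference -0.45, 95% interval -1.15 to 0.25, adjusted p = 0.458).

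Around Pklr, neither factor had a peak closer than 20 kb to the start. Its 2 GR peaks within 50 kb lay 27.8 kb and 26.0 kb upstream and its 2 FOXO1 peaks 34.2 kb upstream and 41.2 kb downstream, and all 4 were nearer to the starts of Fdps or Scamp3. The 250 bases before a downstream Pklr start are shown because they hold the pattern of a carbohydrate response element, CANGNG and CNCNTG with 5 bases of any kind between them, in capitals (mm9, chr3:88940244-88940493, plus strand). This pattern of paired E-box-like stretches is what the glucose-sensing factor ChREBP and its partner MLX are known to read. It was found in 0.45% of 32851 RefSeq promoters of this length (GRCm38.p6), and in 0 of the member GR and FOXO1 peaks.

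Pklr promoter: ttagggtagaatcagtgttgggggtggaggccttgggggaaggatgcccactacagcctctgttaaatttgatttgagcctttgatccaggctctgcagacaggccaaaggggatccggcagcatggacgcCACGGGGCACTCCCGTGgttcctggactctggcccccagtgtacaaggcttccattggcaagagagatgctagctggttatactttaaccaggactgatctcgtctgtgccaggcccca

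**Figure D3:**
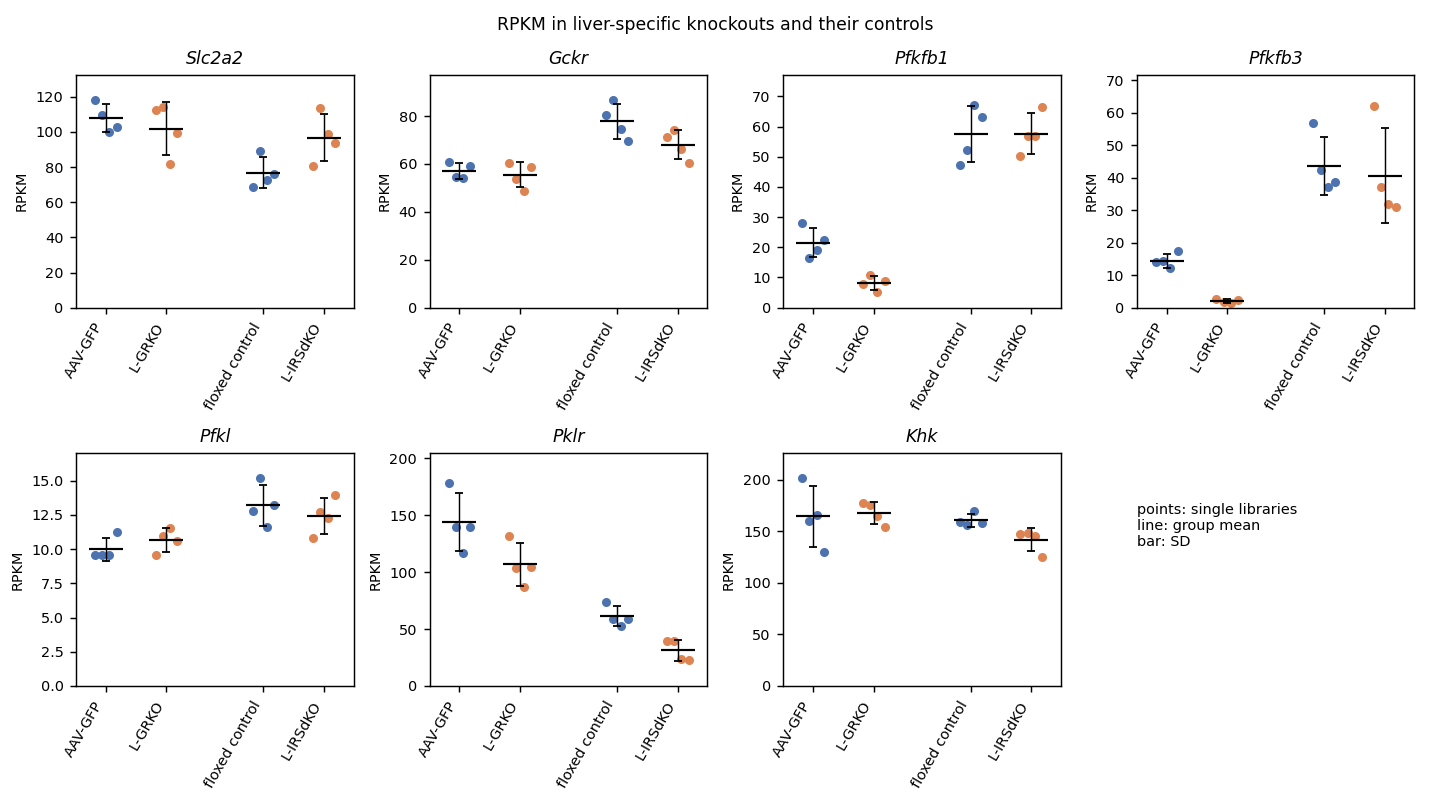
RPKM of the 7 genes in each of 4 libraries (points) of AAV-GFP, L-GRKO, floxed control and L-IRSdKO livers, with the group mean (line) and SD (bar), on axes that start at 0. Pfkfb1 and Pfkfb3 in L-GRKO and Pklr in L-IRSdKO lie wholly below their controls. Levels were not compared between the pairs, which are separate experiments.

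Khk, the fructose kinase, came nearest to a change with feeding in injected mice, while its meal differences in NRF and lean mice had the opposite sign (below). Its RPKM was 165, 153, 152 and 148 in unfed vehicle livers and 100.1, 91.5, 137 and 95 in fed vehicle livers. All 4 fed livers lay below all 4 unfed livers. The log2 difference was -0.56 (95% interval -0.89 to -0.23, fold 0.677), with an adjusted p of 0.0566 that did not pass 0.05. In all, 4 of 21 alternatives called it, with adjusted p from 0.0291 to 0.171. Replicate 4 of the injected mice carried library numbers of another series than replicates 1 to 3, and a term for that series gave the lowest of these. Khk also passed after median-ratio scaling (-0.68), with the replicate block (adjusted p = 0.0423) and without fed vehicle replicate 3 (-0.69, adjusted p = 0.0352). Summed Kupffer cell markers were 65.9 to 94.0 RPKM in fed vehicle and 46.1 to 54.9 RPKM in unfed vehicle livers, and their part was not tested.

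Mean Khk under each of the agents lay between the means of the vehicle groups (106 RPKM fed and 155 RPKM unfed), while single livers of each overlapped fed vehicle and 1 fed dex liver also overlapped unfed vehicle. Fed dex livers had 91.7, 109, 101 and 158 RPKM, fed S961 livers 118, 133, 86.8 and 127 RPKM, and livers with both agents 132, 134, 120 and 127 RPKM. Against fed vehicle the 2 agents together gave a log2 difference of 0.29 (95% interval -0.04 to 0.62, adjusted p = 0.259), and against unfed vehicle -0.27 (95% interval -0.60 to 0.06, adjusted p = 0.577). All 4 of these livers lay below the unfed vehicle livers.

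In NRF mice Khk was 101 and 88.1 RPKM at ZT10, 86.4 and 81.2 RPKM at ZT14-unfed, and 86.3 and 96.6 RPKM at ZT14-fed. The fed livers thus overlapped ZT10 and the log2 difference of ZT14-unfed from ZT10 was -0.17 (adjusted p = 0.358). The meal gave a log2 difference of 0.12 (adjusted p = 0.492). AAV-GFP livers had 201, 160, 166 and 130 RPKM and L-GRKO livers 177, 175, 164 and 154 RPKM, the latter inside the range of the former. Floxed controls had 159, 156, 170 and 157 RPKM and L-IRSdKO livers 148, 148, 146 and 125 RPKM. These groups did not overlap, but the log2 difference was only -0.18 (95% interval -0.34 to -0.02, adjusted p = 0.103).

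In lean mice Khk was 388, 166 and 227 RPKM unfed and 308, 235 and 284 RPKM fed. In DIO mice it was 217, 178 and 191 RPKM unfed and 175, 188 and 191 RPKM fed. The meal gave a log2 difference of 0.17 in lean mice (adjusted p = 0.665) and of -0.08 in DIO mice (adjusted p = 0.876). All 3 fed DIO livers lay below all 3 fed lean livers, with a log2 difference of -0.57 (95% interval -1.10 to -0.05, adjusted p = 0.218). In unfed mice the difference was -0.33 (adjusted p = 0.432), and it became 0.0050 without lean unfed replicate 1, the liver with 388 RPKM.

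Khk had 1 GR peak within 50 kb, in its own intron 3.72 kb downstream of the start and outside any DHS. Its 2 FOXO1 peaks lay 32.9 kb upstream, at the start of Agbl5, and 5.39 kb upstream, in an intron of Emilin1. The GR peak is shown because it held a match to the GR element at its first base, in capitals (mm9, chr5:31227557-31227736, plus strand).

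Khk intron GR peak: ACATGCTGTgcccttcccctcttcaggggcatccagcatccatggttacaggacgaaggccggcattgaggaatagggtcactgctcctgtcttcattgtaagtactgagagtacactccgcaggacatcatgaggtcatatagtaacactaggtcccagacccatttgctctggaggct

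**Figure D4:**
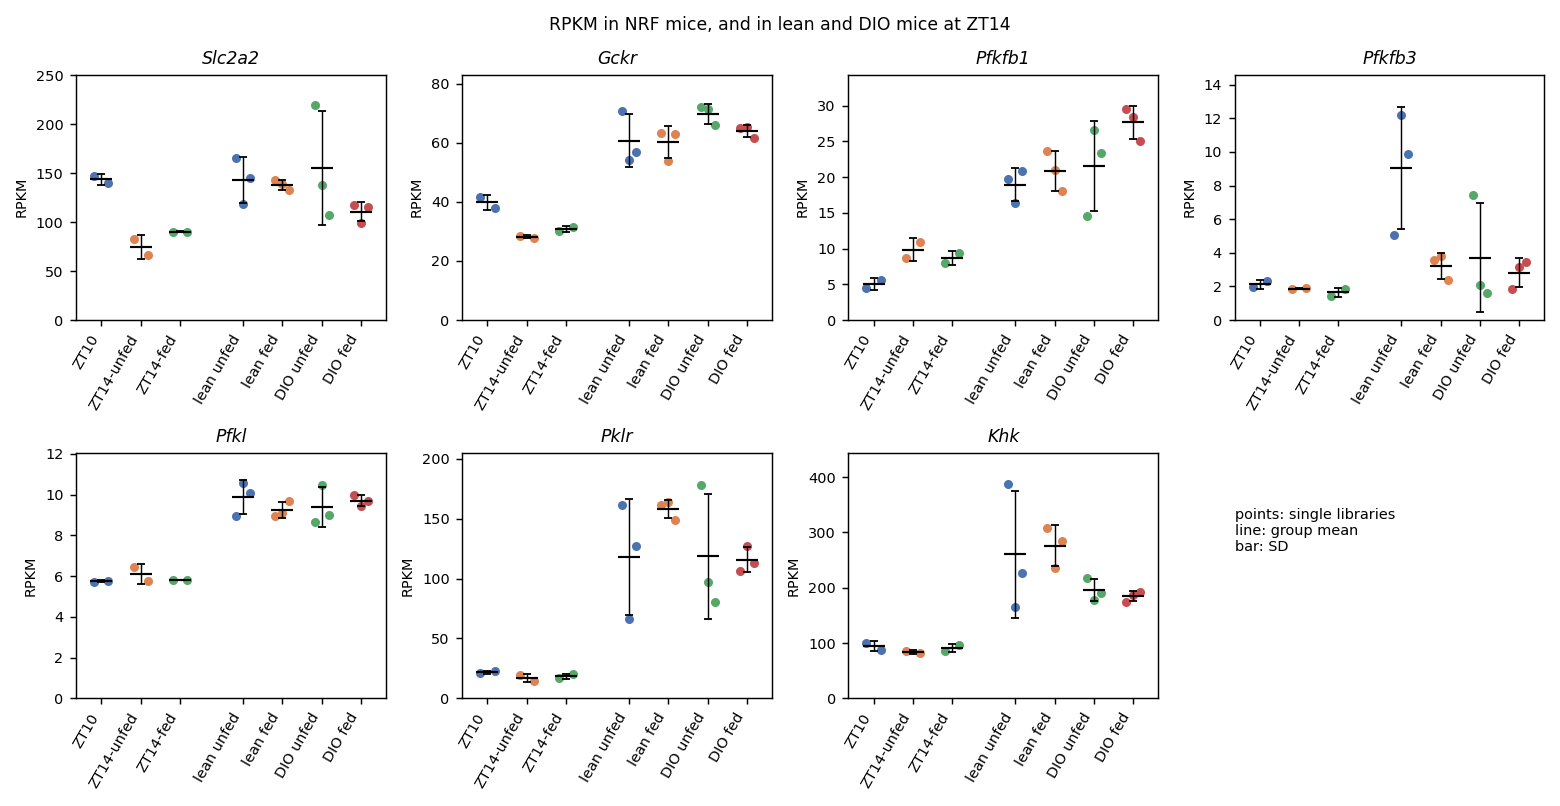
RPKM of the 7 genes in single libraries (points) of NRF mice (2 per group, ribosome-depleted RNA) and of lean and DIO mice (3 per group, poly(A) RNA), with the group mean (line) and SD (bar), on axes that start at 0. Slc2a2 and Gckr are highest and Pfkfb1 lowest at ZT10, and Pfkfb3 is higher in unfed than in fed lean livers. The experiments differ in RNA preparation, so levels were not compared between them.

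The wider pathway was followed through 33 further genes of glycolysis, fructose and polyol metabolism, hexose transport and carbohydrate-responsive transcription, of which 26 to 30 passed the filter on low values. The counts below were made with the same fit and threshold. Over all genes tested, 1.16% passed for ZT14-unfed against ZT10, 3.13% for fed against unfed vehicle and 1.9% under S961. Under dex + S961 10.6% passed, and in L-GRKO 6.68%. At ZT14-unfed against ZT10, 1 of 26 was lower and 0 were higher, and Slc2a9, which encodes a urate and hexose transporter, fell by 0.90 on the log2 scale (adjusted p = 0.00671). In fed against unfed vehicle livers 1 of 27 was higher, Tigar, a fructose 2,6-bisphosphatase, by 0.86 (adjusted p = 0.0132). Under S961 1 of 27 was higher, Tkfc, which phosphorylates glyceraldehyde from fructose, by 0.49 (adjusted p = 0.0239). Under dex + S961 against fed vehicle, 2 of 27 were lower and 0 were higher. Tigar fell by 0.77 (adjusted p = 0.00778) and the glycerate kinase gene Glyctk fell by 0.32 (adjusted p = 0.0392). In L-GRKO 1 of 28 was lower and 0 were higher, and Pfkfb2, another bifunctional enzyme gene, fell by 0.81 (adjusted p = 0.0038).

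L-IRSdKO had the most calls on the list, with 3 of 30 higher and 4 lower, and also the most over all genes, of which 17.4% were called there. Pfkp, the platelet phosphofructokinase subunit, rose by 1.88 (adjusted p = 0.0109) and Gpi1, glucose 6-phosphate isomerase, by 0.53 (adjusted p = 0.00968). Tigar fell by 1.06 (adjusted p = 0.00657), and Mlx, the partner of ChREBP, fell by 0.51 (adjusted p = 0.0154). The other called genes were Mlxipl, which encodes ChREBP (-0.50, adjusted p = 0.00877), Slc2a9 (-0.36, adjusted p = 0.0449) and Eno1 (0.26, adjusted p = 0.0355). In lean mice the meal raised Tigar by 0.94 (adjusted p = 0.00122) and Mlx by 0.72 (adjusted p = 0.000253) (2 of 28 higher). Mlxip, a relative of ChREBP, fell by 0.80 there (1 lower, adjusted p = 0.00106), beside 10.2% of all genes tested called in either direction. In DIO mice the meal raised Mlx alone of the 28, by 0.53 (adjusted p = 0.0046), beside 1.22% of all genes tested called in either direction. In the other 8 comparisons limma called 0 of the list, with between 2 and 9 at an unadjusted p under 0.05, beside 4.56% to 28.3% of all genes tested. The median log2 difference of the list was 0.05 in L-IRSdKO, beside 0.03 over all genes tested, 0.03 in L-GRKO beside 0.08, and 0.08 for the meal in lean mice beside 0.08. The medians of the 7 genes in the same comparisons were -0.14, -0.09 and -0.01.

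Over the whole genome there were 10446 GR peaks, 8546 FOXO1 peaks and 83592 DHSs, and 5098 GR peaks overlapped a FOXO1 peak by at least 1 base, which is 48.8% of the GR peaks and 59.7% of the FOXO1 peaks. Within 50 kb of their starts, 6 of the 7 genes had a GR peak, 5 a FOXO1 peak, 7 a DHS and 3 an overlapping GR and FOXO1 pair. Of 9070 protein-coding genes that passed the filter in all 5 experiments, 48.5% had a GR peak, 51.4% a FOXO1 peak, 99.8% a DHS and 29.7% an overlapping pair. The lists hold positions only, so binding strength and its change with feeding were not compared. Both genes that fell in L-GRKO had an overlapping pair, as had Slc2a2, whose RPKM overlapped between L-GRKO and AAV-GFP.

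The GR element was found in 3 of the 12 GR peaks of the 7 genes when each 180-base peak was read alone, and in 20.28% of all GR peaks. These were both Pfkfb3 peaks and the Khk peak. The FOXO element was found in 2 of their 10 FOXO1 peaks, one 12.1 kb upstream of Slc2a2 and one 32.9 kb upstream of Khk, and in 18.82% of all FOXO1 peaks.

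**Figure D5:**
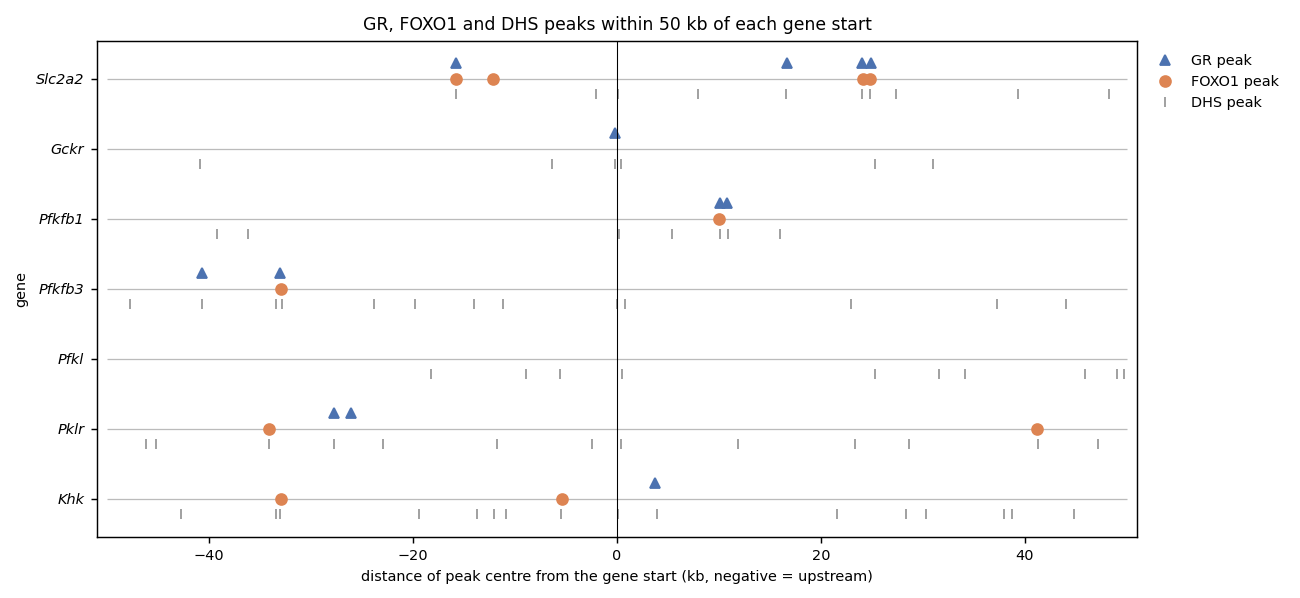
Centres of GR peaks (triangles), FOXO1 peaks (circles) and DHSs (ticks) by distance from each gene's start, in kb along the direction of transcription. Slc2a2 has 4 GR and 4 FOXO1 peaks, Gckr has 1 GR peak at its start, and Pfkfb1 and Pfkfb3 each have 2 GR peaks and 1 FOXO1 peak. Pfkl has DHSs only.

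The genes whose RPKM moved most like each of the 7 were sought over the 54 libraries, with each experiment's mean subtracted, among 10520 genes. These correlations are descriptions, and the libraries share experiments and depth. Pfkfb3 was most alike to Lpin1 (r = 0.80), Tmc7 (0.80) and Gadd45g (0.78), and Pfkfb1 to Ablim3 (0.73), Eif4ebp3 (0.71) and Acox2 (0.71). Slc2a2 was most alike to Ugp2 (0.81), the enzyme that makes UDP-glucose, then to Ttc23 (0.69) and Cnp (0.68). Pklr was most alike to Hcn3 (0.87), with which it shares exon bases, then to Lgals9 (0.67) and Bmyc (0.66). Khk was most alike to Gstt1 (0.71), Haao (0.71) and Selenbp1 (0.67). Gckr reached only 0.60 with Shpk, 0.55 with Aqp8 and 0.54 with Coro7, and Pfkl 0.63 with 1700086O06Rik, 0.56 with Kif1c and 0.55 with Dtx2. Among the 7 themselves, Pklr and Khk were the most alike (r = 0.62) and Pfkl and Pklr the least (r = -0.31).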

How the data were processed

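RNA was measured in 54 liver libraries in 16 groups. The authors aligned reads with STAR to mm9 and deposited RPKM per RefSeq transcript, and the counting tool, strand setting and treatment of duplicates are not given in the sources used here. Depth was inferred from the step between low RPKM values, and with no deposited read counts no count model was fitted. Of 35707 RefSeq IDs, 35407 had a symbol and the remaining 300 were left out. For each symbol the ID with the highest mean RPKM was kept, so alternative starts were not separated (Pfkfb3 had 8 IDs, Khk 3 and Pklr 2). Each experiment was fitted on its own in limma 3.58.1 (R 4.3.3), on log2(RPKM + 0.5) with a variance trend, over the genes whose mean reached 0.5 RPKM, and p-values were adjusted by the Benjamini-Hochberg method over all of them. A fold on this scale understates the change of low genes. Thresholds of 0.01 or 0.05 follow those of the study for each experiment. The fits were tested on simulated data. The script language was Python 3.11.15.

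The GR and FOXO1 peaks, called by the authors with HOMER against input in unfed ZT14 livers and kept where replicates shared them, and the DHSs, called on the combined reads of 8 DNase libraries, hold positions only. Peaks within 50 kb of a gene's start in the mm9 annotation were counted, and motif matches were searched on both strands.

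The 7 genes, the list of 33 pathway genes and the markers were chosen with earlier results of these data known. Named genes are the 7, the 4 called pathway genes with the largest log2 difference in each comparison, the targeted genes and, for each of the 7, the 3 most alike genes. Genes named beside them as neighbours or overlapping genes, Alb and the red cell markers were named after values were seen. So were the remaining called pathway genes of L-IRSdKO.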

Additional observations from a re-analysis of the deposited data

Results flagged for a closer look

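Among 63 groups of 4 libraries (7 genes in 9 groups), 4 held a library whose gap to the others exceeded Dixon's 95% critical value for 4 samples, and chance alone gives about 1 in 20. Pfkl was highest in AAV-GFP replicate 4, at 11.2 RPKM, with the other libraries of that group close together. Pklr was highest in fed dex + S961 replicate 1, at 96.8 RPKM. Slc2a2 was highest in fed dex replicate 4, at 118 RPKM, and Khk was lowest in L-IRSdKO replicate 4, at 125 RPKM.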

How the results depend on the processing

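The falls of Pfkfb3 and Pfkfb1 in L-GRKO were kept under all 18 alternatives run for each. The refit on second RefSeq IDs left genes with 1 ID, such as Pfkfb1 and Slc2a2, unchanged. In ZT14-unfed against ZT10, the count of genes called among the 7 was 0 without a filter, after median-ratio scaling, after quantile normalization, without a variance trend, with the replicate block and with the compared groups alone. It was 3 at a threshold of 0.05, and 0 to 1 when 1 library was left out. In ZT14-fed against ZT10 it was 2 at 0.05 and 1 with the compared groups alone. In fed against unfed vehicle it was 1 (Khk) after median-ratio scaling, with the replicate block or with a library series term, and 0 to 1 when 1 library was left out. In L-IRSdKO it was 0 at a threshold of 0.01, 2 with the replicate block (Pklr and Slc2a2, the latter at adjusted p = 0.0351) and 1 to 2 when 1 library was left out. In unfed DIO against lean mice it was 0 to 1.

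Of 840 values with 1 library left out, 52 changed sign, and of 1292 values under other settings 20 did, none of them a called difference. Pfkfb3 in fed against unfed vehicle was -0.0034 on the log2 scale after median-ratio scaling, and -0.14 to 0.50 when 1 library was left out. Pfkfb3 for the meal in DIO mice ran from -0.48 to 0.49, Pfkfb3 in fed DIO against lean mice from -0.36 to 0.054, and Khk in unfed DIO against lean mice from -0.61 to 0.0050. The cause was not tested. The labels give replicate numbers no meaning and the methods name no replicate block, so the main fits held none. Same-numbered pairs were said to deviate together at r over 0.1. In injected mice 27 of 40 did (median r 0.142), against 35 of 120 pairs of unlike number (median r -0.0506). Same-numbered libraries there thus shared variation that the main fit left out, and its source was not tested. Elsewhere 0 of 6 did in NRF mice, 1 of 4 in the GR experiment, 0 of 4 in the IRS experiment and 3 of 18 in lean and DIO mice. Libraries correlated best with their own number in 12 of 20 cases in injected mice and 4 of 12 in lean and DIO mice. With the replicate block, Pklr in L-GRKO passed (adjusted p = 0.0306) and Khk in fed against unfed vehicle passed (adjusted p = 0.0423). The members with a FOXO1 peak were 3 within 20 kb instead of 5 within 50 kb, and 5 of the 21 most alike genes were the same over the 16 group means.

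Counts over all genes moved more. ZT14-unfed against ZT10 called 127 genes, 15 without a filter, 74 after median-ratio scaling, 52 after quantile normalization and 10 with the replicate block, with 32.3% of calls higher as deposited and 62.2% after median-ratio scaling. L-GRKO called 778, of which 66.7% were higher, and 665 after median-ratio scaling, of which 44.4% were higher, while 466 were called without a filter. L-IRSdKO called 2253, and 1441 with the replicate block. Fed against unfed vehicle called 352, 221 after median-ratio scaling and 928 with the replicate block. Median-ratio scaling shifted the median of all genes by about 0.1 on the log2 scale in several comparisons, as far as 0.14 under dex + S961. Implied depth was lowest in the IRS experiment.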
